A study of Saccharomyces cerevisiae with 7 samples.

Results

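The weakest 25% of Spo11 hotspots in meiotic budding yeast comprised 671 regions, out of 2682 hotspots called on 15 chromosomes. Hits were protein-linked 5′ ends placed at single nucleotides by CC-seq, a method that enriches and sequences DNA ends to which a protein is covalently bound. A hotspot was a stretch in which the smoothed mean map of 5 SPO11+ replicates stood above 3 times its mean, and the members were the 25% of hotspots with the lowest summed HpM (hits per 1000000 mapped hits). The other hotspots were divided by strength in the same way into classes 2, 3 and 4, where class 4 is the strongest. Strength therefore chose the members, and their low level is a description and not a finding.

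By their labels and the study's methods all cells were SK1 strains carrying sae2∆::kanMX, taken after 6 h in sporulation medium at 30 °C. The groups were SPO11+, with 5 biological replicates of which replicate 5 was sequenced as 2 technical replicates, and spo11-Y135F, a catalytically dead control with 1 library. The SPO11+ replicates held 3177210 to 8564017 hits, with replicate 2 the deepest, and the spo11-Y135F library held 2326054 hits. The labels call the replicates biological but do not say how the cultures were related. In the SPO11+ cells sae2∆ leaves Spo11 attached to the ends it makes, so the maps show accumulated ends and not repaired breaks. HpM is a share of each library, so that a level says how breaks were divided among sites and not how many breaks a cell made.

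The deletion shared by all groups was looked for in the maps. A stretch of 400 bp inside the SAE2 gene, picked after its values were seen, held 0 hits in replicates 1 to 4, 8 hits in replicate 5 and 15 hits in the spo11-Y135F library. Windows of 400 bp along chromosome VII held medians of 27 to 43.5 hits in the SPO11+ replicates and 80 hits in the spo11-Y135F library. The technical replicates of replicate 5 are labelled sae2 but their maps were deposited under names that say WT, which is why values without replicate 5 were computed. Beside that stretch replicate 5 had 4 Watson and 408 Crick hits in the 200 bp before it, and 64 Watson and 8 Crick hits in the 200 bp after it. Replicates 1 to 4 had 0 to 3 Watson and 342 to 1234 Crick hits before it, and 65 to 198 Watson and 1 to 3 Crick hits after it. The spo11-Y135F library had 6 Watson and 12 Crick hits before it, and 3 Watson and 1 Crick hit after it. The hits inside the stretch leave the SAE2 genotype of replicate 5 and of the spo11-Y135F library in doubt, and both are called here by their labels.

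Spo11 is related to topoisomerases and starts meiotic recombination by cutting DNA. A pair of Spo11 molecules cuts both strands with a stagger, and each molecule stays bound to a 5′ end. In budding yeast most cutting occurs in accessible DNA between genes, chiefly at promoters, where nucleosomes are sparse. Because of the 2-nucleotide overhang, a double-strand break places a Watson hit and a Crick hit 1 bp apart, the Crick hit at the higher coordinate.

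The members were short and together took a small part of the hits. Their widths ran from 25 to 155 bp with a median of 86 bp, against medians of 153, 218.5 and 424 bp in classes 2, 3 and 4. Their summed mean HpM ran from 3.33 to 52.2 with a median of 33.4. Together they covered 55240 bp and held 3.27% of the HpM in hotspots, while class 4 held 71.7%. In the SPO11+ replicates they held 2.28% ± 0.140 (SD, n = 5) of all hits on these chromosomes, with 2.21%, 2.48%, 2.15%, 2.37% and 2.20% in replicates 1 to 5. Of the spo11-Y135F hits, 0.564% fell in the same regions, which make up 0.495% of the analysed length.

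The limit at 52.2 HpM cut through a continuous range. The members just inside it lay between DNF1 and BCK2 with 51.99 HpM, between SOH1 and SCS3 with 52.03 HpM, and between YOR111W and CEX1 with 52.185 HpM. The hotspots just outside it lay between YPQ2 and TRR1 with 52.190 HpM, between CUE2 and MIF2 with 52.196 HpM, and between TMH11 and STE18 with 52.217 HpM. The replicate SDs of these hotspots were far larger than the steps between them. The hotspot upstream of CEX1, a tRNA export factor, had 49.7, 54.6, 59.7, 52.5 and 44.3 HpM in replicates 1 to 5, and that upstream of TRR1, the cytoplasmic thioredoxin reductase, had 48.8, 60.1, 52.4, 55.9 and 43.7 HpM. The values of these neighbours across the limit overlapped fully.

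The levels of the members spanned similar ranges in the 5 SPO11+ replicates. The lowest, median and highest member had 1.89, 31.8 and 72.1 HpM in replicate 1, 3.15, 36.3 and 68.1 in replicate 2, 3.33, 31.3 and 72.2 in replicate 3, 3.93, 33.7 and 86.5 in replicate 4, and 1.96, 31.4 and 67.0 in replicate 5. In the spo11-Y135F library these were 0.430, 8.17 and 22.4 HpM.

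**Figure D1:**
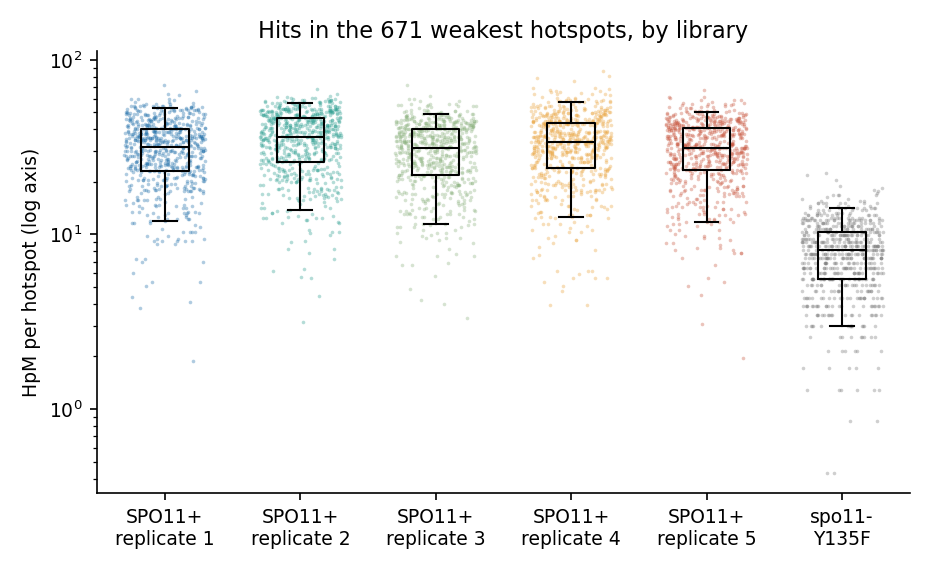
HpM (hits per 1000000 mapped hits, log axis) of each of the 671 weakest hotspots in the 5 SPO11+ replicates and the spo11-Y135F library. Points are hotspots, boxes span the quartiles with the median as a line, and whiskers reach the 5th and 95th percentiles. The SPO11+ medians lie between 31.3 and 36.3 HpM, and the spo11-Y135F median is 8.17 HpM.

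Because the limit was set on the mean of all 5 replicates, the choice was repeated on 4 replicates and the members were measured in the replicate left out. This selected 663 to 674 members. The replicate left out had 9.82, 13.7, 9.62, 11.4 and 10.8 times the hit density of the surrounding 1000 bp on each side, in replicates 1 to 5, with other hotspots excluded from the flanks. The mean was 11.1 ± 1.63 (SD, n = 5), or 3.46 ± 0.20 on the log2 scale, and the density was higher in 5 of 5 replicates. An exact two-sided sign-flip permutation test gave p = 0.063, also after Benjamini-Hochberg adjustment over 3 tests, which is the smallest value that 5 replicates allow. The same regions were at 1.14 ± 0.0066 times their flanks in the spo11-Y135F library, where the SD is over the 5 selections and not over libraries.

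The place in the lowest 25% was examined in the same way. Of the members chosen on 4 replicates, 91.5% ± 1.72 (SD, n = 5) were again in the lowest 25% of the replicate left out, with a range of 89.0% to 93.8%. The regions were fixed, so that a member's width carried over to the replicate left out. When hotspots were ranked by HpM per bp instead, the share was 74.6% ± 5.66. The HpM of members chosen by summed HpM in the left-out replicate was 1.00 ± 0.079 times that in the replicates used for the choice (SD, n = 5), against 0.999 ± 0.069 for the other hotspots. The ratio for members ran from 0.928 to 1.12 over the 5 choices, so the replicate left out read lower in some and higher in others.

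Calling hotspots in single replicates was less stable. With the same caller on 1 replicate at a time, 388 members (57.8%) were called in all 5 replicates, where the share over all hotspots was 89.0%. Another 163 were called in 4 replicates, 87 in 3, 32 in 2 and 1 in a single replicate, and none in no replicate. These calls use the values that chose the members, so the low share describes regions near the threshold. The members called in all 5 had a median highest smoothed density of 0.374 HpM per bp, and those called in only 2 had 0.271 HpM per bp, next to a threshold of 0.26 HpM per bp. Replicate 2 alone called 97.9% of the members, and replicates 1, 3, 4 and 5 called 83.9%, 80.3%, 86.9% and 85.8%. Of the other hotspots, single replicates called 99.75% to 99.95%.

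The coefficient of variation (CV) over the 5 replicates had a median of 15.3% among members, with quartiles of 11.2% and 19.8%, against medians of 13.6%, 12.4% and 12.1% in classes 2, 3 and 4. Counting error alone would give a member a median CV of 8.71%, since members had on average 101.25, 307, 139, 121 and 113 hits in replicates 1 to 5. In classes 2, 3 and 4 the median CV from counting error was 5.68%, 3.88% and 2.27%. The variance of hits between replicates was a median of 3.02 times the Poisson variance in members. It was 6.69, 12.3 and 34.6 times in classes 2, 3 and 4. At the same CV this ratio rises with the number of hits, of which members had the fewest. The ratio therefore cannot rank the classes by steadiness, and the median CV was highest in members. Over members, log10 HpM in different replicates correlated at a mean Pearson r of 0.870 ± 0.049 (SD over 10 pairs of replicates), a value that depends on the range of strengths the class spans. The pairs with replicate 4 ran from 0.792 to 0.882, and the other pairs from 0.861 to 0.921. Replicate 4 was also the replicate with the highest HpM for 226 members, followed by replicate 2 with 206 members.

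**Figure D2:**
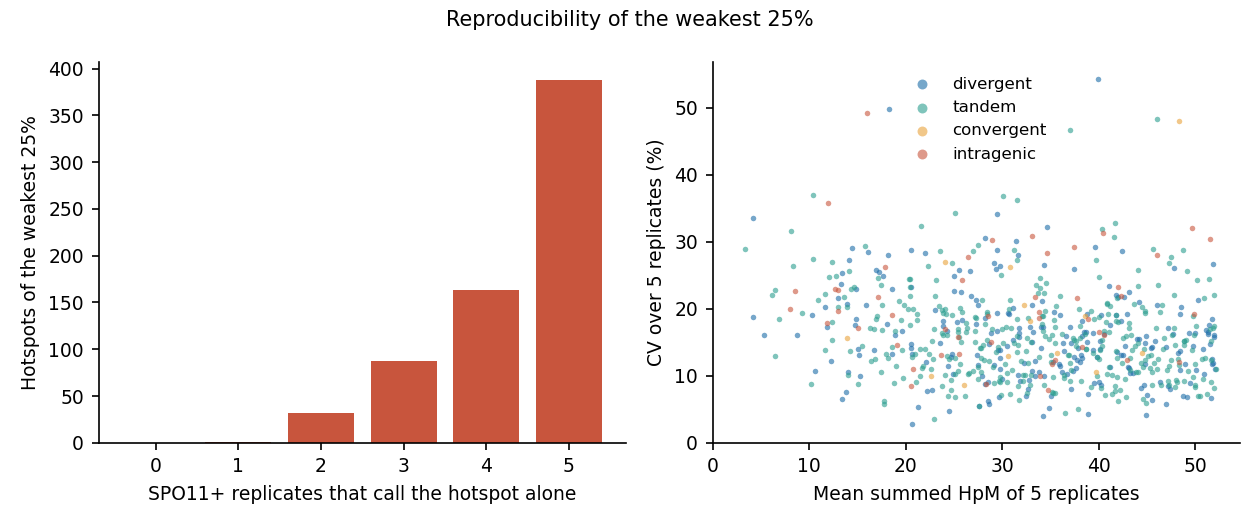
Left, number of hotspots of the weakest 25% called alone in 0 to 5 SPO11+ replicates. Right, CV over the 5 SPO11+ replicates (%) against mean summed HpM, 1 point per hotspot, coloured by the position of the summit. Of the 671 hotspots 388 were called in every replicate, and the CV ran from 2.81% to 54.3%.

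The steadiest members had CVs of 2.81%, 3.55% and 4.01%, below the 10.8%, 10.3% and 8.43% that counting error alone would give. The hotspot between SKI7, an exosome cofactor, and RTS2 had 20.5, 21.3, 20.0, 21.4 and 20.5 HpM in replicates 1 to 5, a CV of 2.81%. That between TRS120 and ADE8, an enzyme of purine synthesis, had 22.7, 22.2, 24.0, 22.2 and 23.5 HpM. That between SPC25, a kinetochore subunit, and ISC1 had 33.7, 33.2, 36.0, 32.9 and 35.3 HpM. These members were chosen for their low CV, and no replicate stood apart in them. Values below counting error do not show that a weak hotspot is this steady.

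The least steady members differed severalfold between replicates. The hotspot between ATX2, a manganese transporter, and DIA2, an F-box protein, had 72.1, 43.9, 34.0, 11.8 and 37.8 HpM in replicates 1 to 5, the highest CV at 54.3%. That between TIS11 and RKM5 had 32.1, 12.4, 12.2, 11.5 and 23.3 HpM, high in replicates 1 and 5. The third lay inside YSR3, a sphingoid base phosphatase gene, and had 9.44, 18.2, 27.8, 8.15 and 16.5 HpM. Replicate 1 was highest in the first 2 of these hotspots and replicate 3 in the last, and the cause was not tested.

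At the nucleotide level, hits per position and strand correlated between replicates at a mean r of 0.801 ± 0.041 in members (SD over 10 pairs), against 0.847, 0.893 and 0.943 in classes 2, 3 and 4. The position and strand with the most hits in the mean of 4 replicates was also the single strongest in the left-out replicate for 50.9% ± 6.22 of members (SD, n = 5), against 65.7% ± 7.24 in class 4. It was among the 5 strongest for 93.8% ± 2.19 of members. Members had fewer hits and fewer positions to choose from than the other classes, and these shares were not matched for either.

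Hits were concentrated at a few nucleotides. A median of 7 positions held the first 50% of a member's HpM, against 12, 15 and 21 positions in classes 2, 3 and 4, whose hotspots are wider. In each hotspot the pair of positions 1 bp apart with the highest level on 1 strand was taken. This pair held a median of 17.1% of a member's HpM, against 11.9%, 10.5% and 8.74%. It held over 50% in 6 members and in none of the other hotspots. Members also had the fewest hits and the shortest widths, whose part in this was not tested. By the share of that pair, the most concentrated member lay between ARV1 and GPN3 on chromosome XII. Position 624066 on Watson and 624067 on Crick held 63.8% of its HpM. The hits there in replicates 1 to 5 were 17, 55, 14, 29 and 22 on Watson, and 16, 36, 14, 24 and 21 on Crick. Both strands carried hits in every replicate, and only in replicate 2 did they differ by more than 5 hits.

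The largest single sites within members were taken by their level on 1 strand, so that a lean to that strand is partly fixed by the choice. The largest lay upstream of HOG1, the osmotic stress MAP kinase gene, in a hotspot on chromosome XII from 371212 to 371329. It had 15.1 HpM on Watson at 371267 and 3.33 HpM on Crick at 371268. Watson exceeded Crick in each replicate, with 51 against 12, 137 against 37, 59 against 12, 65 against 11 and 44 against 10 hits. The next lay between UTP6 and the ribosomal protein gene RPS18A on chromosome IV and favoured Crick, with 8.47 HpM on Watson at 1359086 and 14.5 HpM on Crick at 1359087. That pair held 52.2% of the HpM of its hotspot, and Crick exceeded Watson in every replicate.

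The other sites of this kind were similar in shape. The site upstream of GPI17 on chromosome IV had 10.997 HpM on Watson and 2.78 HpM on Crick. The site upstream of NUP159, a nuclear pore protein gene, had 1.96 HpM on Watson and 10.3 HpM on Crick, and the site upstream of NAB6 had 10.3 HpM on Watson and 2.12 HpM on Crick. Each site leaned to 1 strand, and it was the same strand in all 5 replicates.

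Summed over members the strands were balanced, with 50.5% ± 0.14 of hits on Watson (SD, n = 5). Single members ranged widely, from 2.57% to 100% Watson, with quartiles of 43.0% and 58.0%. Over 80% of hits lay on 1 strand in 39 members (5.81%), against 38, 29 and 9 hotspots in classes 2, 3 and 4. Only 3 members had over 90% on 1 strand. The one between SWH1 and FLO1, a flocculin gene, had all hits on Watson and no pair at 1 bp, with 17.6, 29.2, 29.3, 20.8 and 19.1 HpM in replicates 1 to 5. It lay 248 bp from a masked run without hits in any library. The one between MET4 and POL1 had 93.8% on Watson, and the one between VHS3 and NOB1 had 2.57% on Watson, and neither lay within 1000 bp of a masked run.

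Watson and Crick hits in members were coupled at an offset of 1 bp. Over sites with hits on both strands, Pearson r at 1 bp was 0.484, 0.601, 0.509, 0.490 and 0.521 in replicates 1 to 5, a mean of 0.521 ± 0.047 (SD, n = 5). It was 0.0088 at 0 bp and 0.0057 at 2 bp, and averaged -0.029 over all offsets from -10 to 10 bp other than 1 bp. In the spo11-Y135F library r at 1 bp was 0.053 over 650 sites in the same regions. The highest r in that library was 0.221 at 3 bp over 591 sites, of which 497 had 1 hit on each strand, and it was 0.114 without the 2 sites with the most hits, an omission chosen after the values were seen.

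The r at 1 bp was lower in members than in the other hotspots of the same libraries. The other hotspots had r of 0.805 ± 0.021 (SD, n = 5), and the difference of members minus other hotspots was -0.284 ± 0.047, negative in 5 of 5 replicates. The choice of weak hotspots limits the range of hits per site, on which r depends, so that this difference is a description and no p is given. The r values of classes 2, 3 and 4 were 0.573, 0.653 and 0.811. Members held 1.90 hits per bp on average and class 2 held 2.37. When the other hotspots were thinned at random to the hits per bp of members, the difference was -0.259 ± 0.042. Over sites with at least 8 hits it was -0.553 ± 0.128, with r in members of 0.232, and with log10 hits it was -0.18 ± 0.044. The limit of 8 is on the sum of Watson and Crick hits, which can itself lower r where many sites lie near it.

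**Figure D3:**
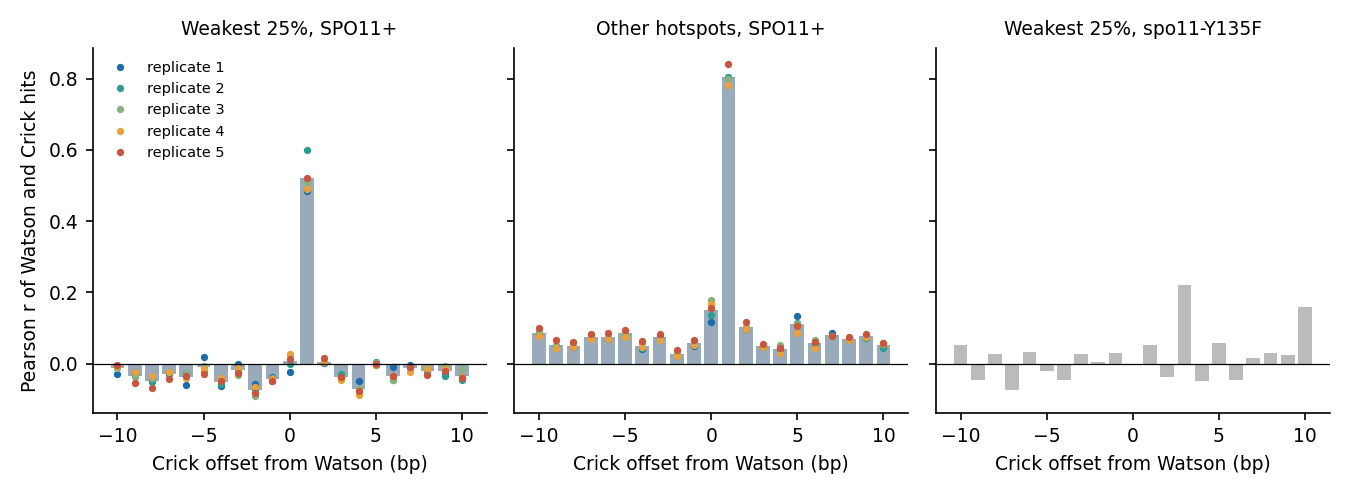
Pearson r of Watson and Crick hits over sites with hits on both strands, against the offset of Crick from Watson (bp, positive to higher coordinates). Bars are means of the SPO11+ replicates (points) for the weakest 25% and the other hotspots, and the value of the single spo11-Y135F library for the weakest 25%. In SPO11+ cells the bar at 1 bp is 0.521 in the weakest 25% and 0.805 in other hotspots.

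The share of hits at positions with a partner on the other strand 1 bp away was 71.1%, 85.9%, 73.8%, 71.7% and 70.0% in members in replicates 1 to 5, a mean of 74.5% ± 6.48 (SD, n = 5). It was 88.3% ± 2.90 in the other hotspots. The difference was -13.8 ± 3.63 percentage points, negative in 5 of 5 replicates. The share depends on hits per bp, which the choice of members made low, and so it too is a description with no p. Replicate 2, the deepest, stood highest. Thinning the other hotspots to the hits per bp of members left a difference of -5.17 ± 1.97 points. With only pairs of at least 8 hits counted, still as a share of all hits, the difference was -27.0 ± 6.79 points. Few pairs in weak hotspots reach that limit, so the choice of members in part fixes this value. With hotspots called at 5 times the mean the difference was -8.81 ± 2.27 points. Of the spo11-Y135F hits in members, 11.2% had such a partner. That library held 0.231 hits per bp in members, against 1.23 to 3.73 in the SPO11+ replicates, and the shares were not matched for this.

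Most members peaked between genes. The summit of 609 members (90.8%) lay in an intergenic region (IGR) that contains a promoter, against 93.9%, 90.7% and 91.5% in classes 2, 3 and 4. Divergent IGRs, which hold the promoters of both neighbours, had 243 members (36.2%), against 36.7%, 44.3% and 53.4%. Tandem IGRs, with 1 promoter, had 366 members (54.5%), against 57.2%, 46.4% and 38.2%. Convergent IGRs, which lie between gene ends, had 13 members (1.94%), against 7, 6 and 5 hotspots. Inside an open reading frame (ORF) peaked 49 members (7.30%), against 5.07%, 8.36% and 7.75% in classes 2, 3 and 4. These shares are counts of regions and carry no test.

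**Figure D4:**
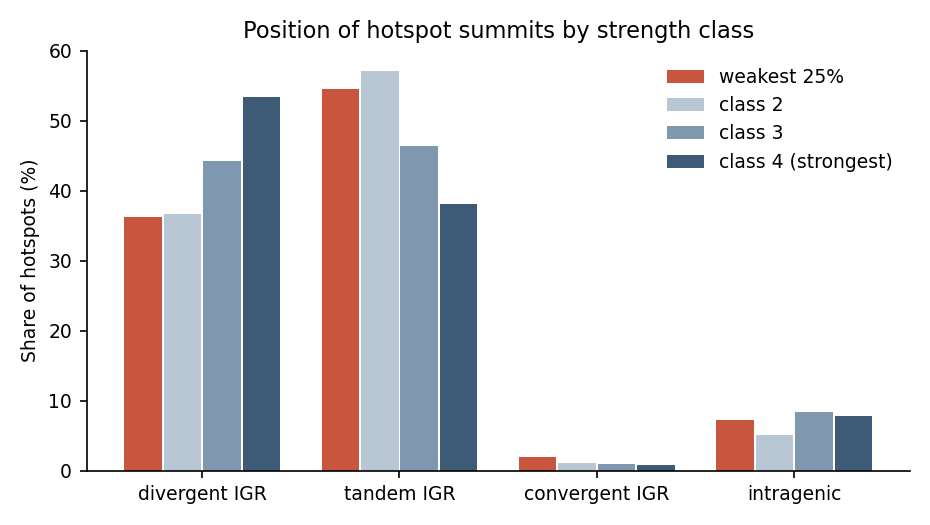
Share of hotspots (%) whose summit lay in a divergent, tandem or convergent intergenic region (IGR) or inside an ORF, for the weakest 25% and classes 2 to 4 of hotspot strength. The divergent share is 36.2% in the weakest 25% and 53.4% in class 4, and the tandem share 54.5% and 38.2%.

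Members in promoter-containing IGRs peaked a median of 170 bp upstream of the nearest start codon, with quartiles of 256 and 122 bp, against medians of 180, 194 and 270 bp in classes 2, 3 and 4. In 78 of them (12.8%) the summit was within 100 bp of the start codon, against 9.22%, 7.40% and 4.07%. The IGRs were narrower too. Divergent IGRs with members had a median width of 535 bp, against 563, 576 and 695 bp, and tandem IGRs 407.5 bp, against 427, 466 and 692 bp. Distance and IGR width both moved with strength, and the part of width in these distances was not tested.

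Of the 49 members inside ORFs, 10 peaked in the first 20% of the gene, 25 in the middle and 14 in the last 20%. In classes 2, 3 and 4 the first 20% held 10, 10 and 8 hotspots and the last 20% held 4, 17 and 13. The middle held 20, 29 and 31. The members inside ORFs had a median CV of 19.2%, against 15.0% and 15.0% for members in divergent and tandem IGRs. Of these 49 members, 15 (30.6%) were called in all 5 replicates, against 60.9% and 59.6%. Their median level was 29.0 HpM, against 34.2 HpM and 33.3 HpM. The strongest lay inside PHM7, on chromosome XV from 163108 to 163232, with 39.97, 50.7, 46.0, 78.7 and 42.6 HpM in replicates 1 to 5, where replicate 4 stood alone. The median member of all lay inside CUE4, with 34.9, 32.6, 24.4, 44.4 and 30.5 HpM. The strongest convergent member lay between PIR3, a cell wall protein gene, and YKL162C, with 32.1, 53.8, 32.0, 86.5 and 37.0 HpM, again highest in replicate 4.

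Members were spread over the chromosomes. They made up 19.5% of the hotspots on chromosome X and 39.3% on chromosome IX, the lowest and highest shares. The nearest hotspot was a median of 1583 bp away, close to the 1626, 1602 and 1634 bp of classes 2, 3 and 4. It lay under 1 kb away for 209 members (31.1%), close to the 29.1%, 31.3% and 30.3% of classes 2, 3 and 4. In 70 members (10.4%) the same IGR held a stronger hotspot, a share that the choice of weak hotspots in part fixes. Within 20 kb of a chromosome end lay 12 members (1.79%), against 7, 4 and 3 hotspots in classes 2, 3 and 4.

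Some members lay beside genes of meiotic recombination, taken from a list of 27 genes on these chromosomes. Hotspots upstream of such genes numbered 16, with 4 members and 7, 2 and 3 in classes 2, 3 and 4. The member between SKI8, which encodes a partner of Spo11, and VAM7 had 29.3, 32.6, 27.1, 34.6 and 24.4 HpM in replicates 1 to 5, against 9.89 HpM in the spo11-Y135F library. That between LIN1 and REC104, another Spo11 accessory gene, had 8.81, 16.1, 12.2, 14.9 and 12.9 HpM, against 3.44 HpM. In both, every SPO11+ replicate stood above the control library.

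The member between SAE2 and BUD13 had 33.7, 37.2, 30.2, 35.7 and 28.9 HpM in replicates 1 to 5, and 6.88 HpM in the spo11-Y135F library. SAE2 is the gene labelled as deleted in all strains, a label that the counts above leave in doubt for replicate 5 and spo11-Y135F, and 89.8% of the hits in this member were on Watson. The stretch of SAE2 without SPO11+ hits in replicates 1 to 4 also had hits on mainly Watson on this side of it, with 65, 198, 88, 66 and 64 Watson hits in the 200 bp after it and 2, 1, 3, 2 and 8 Crick hits. Those 200 bp may reach into this member, so their hits may not be separate from its own. The part of the deletion in the strand balance of this member was not tested.

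Ribosomal protein genes, the longest list, had the most members. Of 131 genes, 31 had a member in the IGR upstream, and hotspots upstream of these genes numbered 77, of which 30 (39.0%) were members and 10 (12.99%) were in class 4. By construction 25% of all hotspots are members, and no test was made of the list. Their levels ran from 4.14 to 49.4 HpM with a median of 35.6, and 19 of the 30 were called in all 5 replicates. The highest lay between RPL13B and RPS16A, with 51.6, 49.2, 54.6, 42.7 and 49.0 HpM in replicates 1 to 5 and 7.74 HpM in the spo11-Y135F library. That upstream of RPL1A had 42.5, 52.7, 45.8, 50.6 and 52.7 HpM, against 14.6 HpM. The members beside RPS7A, RPS21B and RPS8B had means of 48.7, 48.4 and 47.0 HpM.

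The other lists had 1 member each. Between the histone genes HTB1 and HTA1, which share a divergent IGR, a member had 31.8, 34.0, 29.1, 36.2 and 32.5 HpM, against 6.45 HpM in the spo11-Y135F library. Upstream of PFK1, a phosphofructokinase gene, a member had 38.4, 40.8, 31.8, 37.1 and 34.2 HpM, against 4.73 HpM, and it was 1 of 12 hotspots upstream of glycolytic genes, 6 of which were in class 4. Upstream of PDS5, a cohesin regulator, a member had 35.9, 50.3, 39.3, 61.0 and 33.9 HpM, against 12.04 HpM. It was 1 of 9 hotspots upstream of cohesin and condensin genes.

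Hits of the spo11-Y135F library, which come from cells without Spo11 cleavage, were counted in the members. It had 12763 hits in them, a median of 19 hits per member, from 1 to 52, so that no member was empty. Its density was 0.0993 HpM per bp in members and 0.0872 HpM per bp in their flanks. The ratio was 1.14, with a 95% interval of 1.12 to 1.16 from the exact binomial, against 1.12, 1.12 and 1.04 in classes 2, 3 and 4. There is 1 such library and no replicate check, and the interval covers counting error only. In the SPO11+ replicates the density was 0.399 ± 0.025 HpM per bp in members and 0.0362 ± 0.0030 HpM per bp in flanks (SD, n = 5). Flanks thus read higher in spo11-Y135F, on a scale that is relative within each library.

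**Figure D5:**
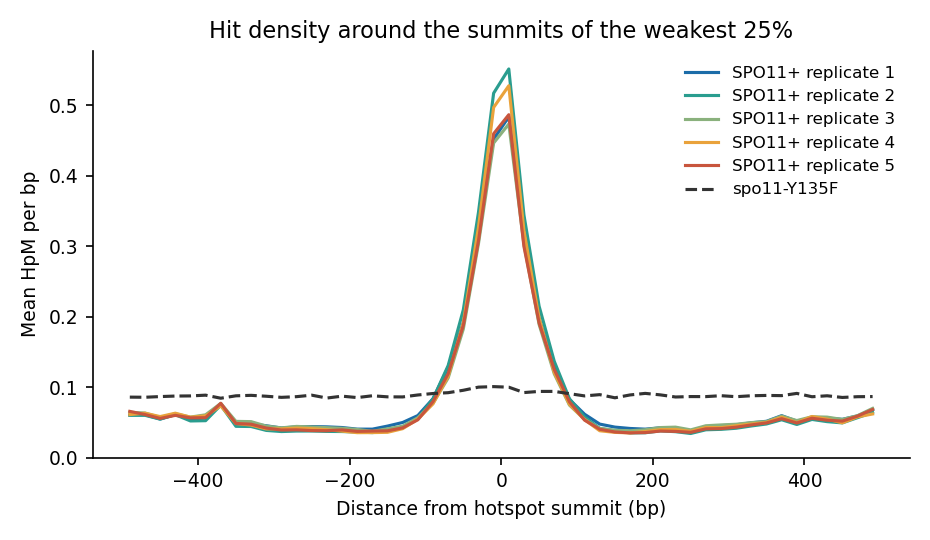
Mean hit density (HpM per bp, bins of 20 bp) against the distance from the summit (bp) over the 671 weakest hotspots, with 1 line per SPO11+ replicate and a dashed line for spo11-Y135F. Just after the summit the SPO11+ replicates stand at 0.473 to 0.551 HpM per bp, and spo11-Y135F at 0.1002.

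In 667 of 671 members (99.4%) all 5 SPO11+ replicates stood above the spo11-Y135F library, where the share over all hotspots was 99.8%. The rule used the SPO11+ values, and 5 libraries against 1 cannot give a permutation p below 0.167, so no test was made. The median ratio of mean SPO11+ to spo11-Y135F HpM was 4.10 in members, against 5.27, 7.58 and 13.8 in classes 2, 3 and 4. This ratio and the overlap compare HpM, which is relative within each library and read higher in the flanks of spo11-Y135F. The 4 members that overlapped were among the smallest, with widths of 25, 34, 38 and 32 bp.

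The weakest member of all was 1 of these. It lay between MCM3, a subunit of the replicative helicase, and SPF1, on chromosome V from 90095 to 90119, and had 1.89, 4.44, 3.33, 3.93 and 3.08 HpM in replicates 1 to 5, against 3.01 HpM (7 hits) in the spo11-Y135F library. Only replicate 1 was below the control. Relative to its own flanks this member stood at 3.56 times in the SPO11+ mean and 1.35 times in spo11-Y135F. The member between YLR406C-A and GAG1 had 3.78, 5.60, 4.89, 4.78 and 1.96 HpM, against 5.59 HpM (13 hits), so that only replicate 2 was above it. Relative to its own flanks that member stood at 1.66 times in the SPO11+ mean and 2.00 times in spo11-Y135F. The second weakest, between RPS4B and MNL1, had 4.09, 3.15, 4.22, 3.93 and 5.32 HpM, against 1.29 HpM (3 hits), with no overlap. The others that overlapped lay between MGM1 and STE4 and between GRS2 and DIB1, each with 1 or more SPO11+ replicates below the control. All 4 overlapping members had mean levels of 3.33 to 8.13 HpM, and they were picked out after their values were seen.

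The members with the most spo11-Y135F hits all lay on chromosome XV. That between HPF1 and ZPS1 had 52 hits, where its flank density gave 33.8. That between RPB8, a subunit shared by the RNA polymerases, and ISU2 had 51 hits, where its flanks gave 25.3, and that between HUA2 and RDL1 had 48, where its flanks gave 25.6. They had 43.3, 49.8 and 41.9 HpM on average in SPO11+ cells, against 22.4, 21.9 and 20.6 HpM in spo11-Y135F. Across all members, 11 had at least 2 times their own flank density in the spo11-Y135F library, against 5, 1 and 0 hotspots in classes 2, 3 and 4. At least 3 times was reached by 0 members, against 1, 1 and 0. The median number of hits in that library was 19 in members, against 35, 50 and 88, and these counts were not matched for it. The same caller found 15 clusters in the spo11-Y135F library alone. They overlapped 3 of the 2682 hotspots, none of them a member. With so few overlaps, and with members the narrowest hotspots, this count does not set members apart.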

How the data were processed

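Per the labels and the study's methods, the authors mapped read pairs to Cer3H4L2, a yeast build that includes the inserted his4::LEU2 and leu2::hisG alleles, using Bowtie2. Their terminalMapper assigned each pair to the nucleotide of its protein-linked end, and hits in rDNA, telomeres and repeated elements were taken out. The deposited single maps give, for each nucleotide, the raw counts of Watson and Crick hits. A deposited average map was not used. Technical replicates were summed. HpM used all hits of a library. Chromosome III was left out, as were runs over 200 bp without hits in any library. The mean map was smoothed with a Hann window reaching 100 bp to each side. Stretches above 3 times the mean were merged if under 200 bp apart and kept from 25 bp. Coordinates are those of the deposited maps. ORFs and gene names came from a RefSeq table of 5834 stranded genes. Its assembly is R64, none of its coordinates is given, and over shifts of up to 100 bp the share of members in promoter-containing IGRs ran from 82.0% to 91.1%.

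Depth was 3177210 to 8564017 hits in the SPO11+ replicates. Replicates were compared by exact two-sided sign-flip tests with Benjamini-Hochberg adjustment over 3 tests. When all replicates share a sign, such a test gives its smallest possible p whatever their spread. The 2 tests on pairs at 1 bp used replicates that also chose the members, and are given as descriptions. Alternatives changed the threshold, window, merging, ranking, depth, flanks, site filter and gene ends, and left out each replicate. Named hotspots were those nearest the limit, weakest, median, strongest per region type, richest in spo11-Y135F hits, lowest and highest in CV, with the largest sites, or upstream of listed genes. The members and lists were chosen with earlier results of these data known. The caller and tests were tested on simulated data. Python 3.11.15, numpy 2.4.6, scipy 1.17.1, pandas 2.3.3 and matplotlib 3.10.9 were used. Sequences of the sites are not analysed here. One member beside a listed gene is not reported here.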

Additional observations from a re-analysis of the deposited data

Results flagged for a closer look

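Among 49 measures examined over the 5 SPO11+ replicates, 8 had 1 replicate whose distance to its nearest neighbour exceeded 0.71 of the whole range, a limit that chance passes in about 1 of 20 groups of this size. Replicate 2, the deepest library, stood apart in 3 of them. Its share of hits at 1 bp pairs in members was 85.9%, against 70.0% to 73.8% in the others (gap over range 0.762). The difference in r at 1 bp, members minus other hotspots, was -0.203 in replicate 2, against -0.319 to -0.289 (0.735). The difference in pair share was -7.35 points there, against -16.4 to -14.8 (0.830).

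The other 5 concern single hotspots. The member inside PHM7 had 78.7 HpM in replicate 4, against 39.97 to 50.7 in the others (0.723). The member upstream of HOG1 had 36.6 HpM in replicate 3, against 51.9 to 58.2 (0.711). The member between UTP6 and RPS18A had 32.3 HpM in replicate 4, against 44.9 to 49.0 (0.751). Just outside the limit, the hotspot between CUE2 and MIF2 had 43.4 HpM in replicate 5, against 52.6 to 55.9 (0.738), and that between TMH11 and STE18 had 40.3 HpM in replicate 1, against 53.5 to 57.3 (0.777).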

How the results depend on the processing

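Of 133 recomputed values, 104 stayed within the replicate SD or counting interval or, for differences, kept their direction, and 29 moved further. None reversed. The share of hits in the weakest 25% was 2.09% and 2.501% with thresholds of 2 and 5 times the mean, 1.85% with a narrower window, 2.43% without merging, 3.55% ranked by HpM per bp and 0.585% for the weakest 10%. The share placed in the same class again was 74.6% ranked by HpM per bp and 85.9% for the weakest 10%. With thresholds of 2 and 5, a narrower window, ranking per bp and the weakest 10%, r at 1 bp was 0.443, 0.568, 0.471, 0.571 and 0.467. It was 0.232 over sites with at least 8 hits on both strands together, a filter that can itself lower r. The promoter share was 86.7% at 2 times the mean and 87.0% with the narrower window. The spo11-Y135F ratio to flanks was 1.11 at 2 times the mean and 1.20 ranked per bp. Members called in every replicate were 64.3% and 49.5% with thresholds of 2 and 5, 65.7% ranked per bp and 19.7% for the weakest 10%. The correlation between replicates was 0.941 ranked per bp, 0.818 for the weakest 10% and 0.809 on the linear scale. The cause was not tested.

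Without each replicate in turn, the share of hits ran from 2.23% to 2.32%, the left-out density from 3.41 to 3.51 (log2), the share in the same class from 90.6% to 91.9%, r at 1 bp from 0.512 to 0.527, its difference from -0.293 to -0.280, and the pair difference from -14.9 to -13.5 points. The promoter share ran from 90.2% to 91.2%, the spo11-Y135F ratio from 1.13 to 1.15, members called in every remaining replicate from 59.5% to 64.1%, and the correlation from 0.822 to 0.892. With 4 replicates the smallest possible p is 0.125. Without replicate 5 the left-out density was 3.45 and r at 1 bp was 0.515. No paired analysis of the genotypes was possible, because spo11-Y135F has 1 library and the labels do not say how the cultures were related. Depth limits single members, which held 101.25 to 307 hits per SPO11+ replicate on average and had a median counting CV of 8.71%.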
